A study of Acartia tonsa with 26 samples.

Results

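The 3 ferritin genes described here, DN8240_c0_g1, DN4715_c0_g1 and DN3233_c0_g1, came from a de novo transcriptome of Acartia tonsa, a small marine calanoid copepod. They were chosen by name, as the rows of the deposited tables that carried these identifiers of the Trinity assembly. All 3 were found, in both tables, among 9590 genes in all. The annotation within each identifier gave DN8240_c0_g1 a match to a ferritin subunit of the mosquito Aedes aegypti, a ferritin domain and a signal peptide. DN4715_c0_g1 carried a ferritin domain and a signal peptide with no protein match, and DN3233_c0_g1 a match to the soma ferritin of the pond snail Lymnaea stagnalis with no signal peptide mark. A search for ferritin-type names caught 1 other identifier, DN10367_c0_g1, which matches a polyprenyl synthase and was left out. Genome positions, transcript lengths and sequences of these genes were not used here, so levels are compared within a gene and not between genes, and reads shared between similar transcripts could not be assessed.

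Ferritin subunits assemble into a hollow protein cage that oxidises ferrous iron and stores it as a mineral core. Storage in this form keeps free iron from driving the formation of oxygen radicals and holds it ready for haem and iron-sulfur proteins. In insects the ferritin subunits carry signal peptides and enter the secretory pathway, whereas soma ferritin of snails is a cytosolic protein. In dormant cysts of the brine shrimp Artemia, the ferritin relative artemin is an abundant chaperone.

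RNA was sequenced from pooled whole eggs in 26 libraries of 6 groups, which the labels call technical replicates. Development without arrest, called subitaneous, was sampled at 3 h (4 to 16 cells, 5 libraries), 7 h (gastrulation, 5), 14 h (organogenesis, 4), 24 h (formation of appendages, 4) and 42 h (nauplii about to hatch, 5). Those eggs stayed at the 16.9 °C and salinity of 32 at which the parent population was held in the dark. Quiescent eggs, halted at gastrulation by cold at 4 °C without oxygen, were sampled at 26 h (3 libraries), so temperature, oxygen, arrest and sampling time cannot be told apart. Since the replicates are technical, p-values measure the spread between these libraries and not between cultures. In whole eggs, a change in the number of cells with a transcript and a change in its amount per cell cannot be told apart.

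The values are the authors' normalized signal, in which 1 read was worth 0.00894 to 0.0122, depending on the library. The listed genes held 4323863 to 24189169 recovered reads per library, and the ferritin genes 131 to 10832, so that counting error was at most 8.74% of a ferritin value. One library, 42 h D, went against its label: over 5258 genes its Spearman correlation with the rest of its own group was 0.30, while with the 3 h mean and with the quiescent mean it was 0.835 each, whereas each of the other 25 libraries correlated at 0.753 or more with the rest of its group. Its ferritin values were low as well, and changes that involve the 42 h group are given with and without it. A name search for algal photosynthesis genes, a sign of feed, caught 10 identifiers, all with matches to proteasome or calcium-binding proteins and left out by name, so that 0 were kept.

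DN8240_c0_g1, the gene with the mosquito ferritin match, was lowest at gastrulation and highest before hatching. Its signal in libraries A to E was 5.85, 4.89, 9.07, 5.26 and 5.26 at 3 h, and 2.88, 2.44, 3.17, 2.09 and 3.06 at 7 h. It was 16.1, 12.5, 20.9 and 31.8 at 14 h (A, B, C and E), and 16.7, 14.8, 14.7 and 9.36 at 24 h (A to D). At 42 h it was 38.8, 52.7, 112, 3.70 and 64.2, and in quiescent eggs (A, C and D) 3.53, 3.56 and 4.56. The 7 h libraries lay below every library of every other group, and the 42 h libraries above all others with the exception of 42 h D, which fell among the quiescent values. The mean was 6.07 ± 1.72 (SD, n = 5) at 3 h, 2.72 ± 0.453 (n = 5) at 7 h, 20.3 ± 8.38 (n = 4) at 14 h, 13.9 ± 3.16 (n = 4) at 24 h, 54.3 ± 39.5 (n = 5) at 42 h and 3.88 ± 0.587 (n = 3) in quiescence. The mean at 42 h was 66.9 ± 31.8 (n = 4) without 42 h D.

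DN4715_c0_g1, the other ferritin gene with a signal peptide, had its groups in the same order. Its signal in libraries A to E was 3.87, 3.04, 4.41, 2.70 and 3.01 at 3 h, and 1.72, 1.34, 2.51, 1.40 and 2.55 at 7 h. It was 8.44, 5.94, 10.1 and 14.3 at 14 h (A, B, C and E), and 7.67, 7.74, 5.64 and 4.27 at 24 h (A to D). At 42 h it was 17.9, 29.9, 36.5, 2.25 and 26.2, and in quiescent eggs (A, C and D) 2.18, 1.81 and 2.65. Quiescent and 7 h values overlapped, and both lay below all 3 h values. The mean was 3.41 ± 0.710 (SD, n = 5) at 3 h, 1.90 ± 0.589 (n = 5) at 7 h, 9.71 ± 3.53 (n = 4) at 14 h, 6.33 ± 1.68 (n = 4) at 24 h, 22.6 ± 13.2 (n = 5) at 42 h and 2.21 ± 0.421 (n = 3) in quiescence. Without 42 h D the mean at 42 h was 27.6 ± 7.77 (n = 4).

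DN3233_c0_g1, the snail soma ferritin match, had the smallest ratio of highest to lowest group mean and was lowest in quiescent eggs. Its signal in libraries A to E was 6.01, 6.10, 6.31, 5.03 and 5.59 at 3 h, and 4.45, 3.89, 5.83, 4.14 and 6.54 at 7 h. It was 13.1, 12.1, 18.7 and 19.1 at 14 h (A, B, C and E), and 15.9, 14.4, 14.0 and 10.2 at 24 h (A to D). At 42 h it was 30.7, 20.7, 52.6, 3.40 and 20.4, and in quiescent eggs (A, C and D) 3.58, 3.40 and 4.398. The 3 h and 7 h values overlapped, unlike those of the other ferritin genes, and the quiescent values overlapped the lower 7 h values and 42 h D. The mean was 5.81 ± 0.508 (SD, n = 5) at 3 h, 4.97 ± 1.16 (n = 5) at 7 h, 15.7 ± 3.69 (n = 4) at 14 h, 13.6 ± 2.44 (n = 4) at 24 h, 25.5 ± 18.0 (n = 5) at 42 h and 3.79 ± 0.532 (n = 3) in quiescence. Leaving out 42 h D gave a mean at 42 h of 31.1 ± 15.1 (n = 4).

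**Figure D1:**
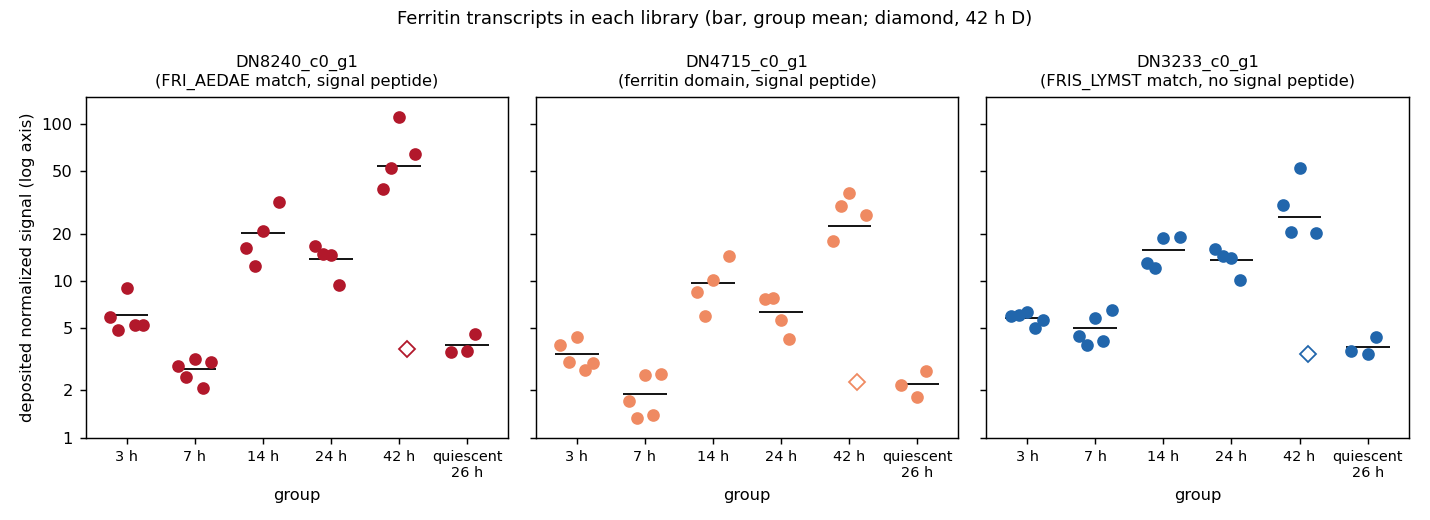
Deposited normalized signal of each ferritin gene (vertical log axis) in the 26 libraries by group, with points for libraries, bars for group means and an open diamond for library 42 h D. Each gene was low at 7 h and in quiescent eggs and higher at 14 h and 24 h, and 4 of the 5 libraries at 42 h lay above all others; heights are not comparable between panels because transcript lengths were not used.

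For each gene the order of the group means put 24 h, 14 h and 42 h above 3 h, 7 h and quiescent eggs. Among neighbours in this order, 1 pair passed an adjusted p of 0.05 in limma, a linear model of log2(value + 1) fitted to all libraries with Benjamini-Hochberg adjustment over all tested genes. That pair was 3 h and 24 h for DN3233_c0_g1, with a mean signal of 5.81 against 13.6 (log2 change 1.09, adjusted p = 0.0497, with 26.9% of tested genes called higher), and it turned to -0.08 under median-ratio rescaling of the listed genes. This call held in 4 of 26 fits that left out 1 library (adjusted p up to 0.115), and it was lost without a filter (0.0697), with joined tables (0.05001) and with a run term (0.0571). No other neighbours passed this test. Among these neighbours the ranges did not overlap for 7 h and quiescence, quiescence and 3 h, and 3 h and 24 h in DN8240_c0_g1. They did not overlap for quiescence and 3 h in DN4715_c0_g1 either. Overlap of ranges was not counted over all tested genes, here or in the comparisons below. A lack of overlap therefore describes the ferritin genes and does not set them apart from other genes.

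Between 14 h and 7 h, the step from gastrulation to organogenesis, all 3 ferritin genes rose. The ratio of mean signal was 7.46 for DN8240_c0_g1, 5.10 for DN4715_c0_g1 and 3.17 for DN3233_c0_g1. No 14 h library overlapped the 7 h libraries in any of them, which was not counted over all tested genes. The log2 change was 2.45 (SE 0.55, limma adjusted p = 0.00167) for DN8240_c0_g1. It was 1.85 (SE 0.47, adjusted p = 0.00468) for DN4715_c0_g1 and 1.48 (SE 0.44, adjusted p = 0.0150) for DN3233_c0_g1. Of 5201 tested genes 21.1% were called higher in this comparison, and the authors had selected the listed genes on these libraries, so a call is not independent evidence of a change. The ferritin changes stood above those of 95.9%, 92.2% and 88.2% of tested genes, in the same order, and their median of 1.85 compared with 0.41 over all tested genes. That standing belongs to log2(value + 1), which understates the change of low genes. With log2(value + 0.1) the ferritin changes stood above 84.7%, 77.5% and 65.4% of tested genes, whose median was 1.09. In edgeR on recovered reads, with the deposited scaling, they stood above 70.03%, 63.0% and 52.3%, and the median of all was 1.55. Within the sequencing run inferred from the labels for replicates A and B the changes were 2.06, 1.68 and 1.39, and within that of C, D and E 2.84, 2.07 and 1.63, where none passed (adjusted p = 0.122, 0.177 and 0.294). Rescaling on the listed genes kept all 3 directions, and DN3233_c0_g1 no longer passed under median-ratio (0.34), trimmed-mean (0.31) and quantile (0.76) scaling.

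Between 7 h and 3 h, from cleavage to gastrulation, the means of DN8240_c0_g1 and DN4715_c0_g1 were lower at 7 h without passing the test over all libraries. Every 7 h library lay below every 3 h library for both genes, at ratios of mean signal of 0.449 and 0.559. The log2 changes were -0.90 (SE 0.52, limma adjusted p = 0.492) and -0.61 (SE 0.44, adjusted p = 0.716), against -0.21 (SE 0.42, adjusted p = 1) for DN3233_c0_g1, which turned to 0.29 under quantile normalization. At an unadjusted p of 0.05 limma called 0 of the 3, as edgeR on recovered reads did after adjustment. In this comparison 11.1% of the 5201 tested genes were called lower. Without 42 h D the SE of DN8240_c0_g1 was 0.26 and this gene passed (adjusted p = 0.0152), while DN4715_c0_g1 did not (0.0792). With the spread of the 2 compared groups alone, or under median-ratio rescaling, both passed (0.00207 and 0.0179, or 0.00377 and 0.0223). Among all 5201 tested genes limma called 757 lower without 42 h D. The count was 1438 with the spread of the 2 groups alone and 862 under median-ratio rescaling. Within replicates A and B the changes of DN8240_c0_g1, DN4715_c0_g1 and DN3233_c0_g1 were -0.80, -0.81 and -0.45, and within C, D and E -0.97, -0.47 and -0.04.

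Between 24 h and 14 h none of the ferritin genes passed the test. The log2 changes were -0.47 (95% interval -1.67 to 0.73) for DN8240_c0_g1, -0.52 (-1.54 to 0.50) for DN4715_c0_g1 and -0.19 (-1.14 to 0.77) for DN3233_c0_g1, with limma adjusted p of 0.687, 0.574 and 0.864. At an unadjusted p of 0.05 limma also called 0 of the 3, as did edgeR on recovered reads, while DESeq2 called DN8240_c0_g1 and DN4715_c0_g1 lower (-0.65 and -0.73) among 15.6% of tested genes. Of the tested genes 9.61% were called lower here. The 2 inferred runs differed in sign: within replicates A and B the changes were 0.14, 0.11 and 0.25, and within C, D and E -1.07, -1.14 and -0.62.

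Between 42 h and 24 h, the approach to hatching, DN8240_c0_g1 and DN4715_c0_g1 rose, and DN3233_c0_g1 did not pass. The ratio of mean signal was 3.91, 3.56 and 1.88 for DN8240_c0_g1, DN4715_c0_g1 and DN3233_c0_g1, and in each gene 4 of 5 libraries at 42 h lay above all 24 h libraries while 42 h D lay below them. The log2 change was 1.36 (SE 0.55, limma adjusted p = 0.0433) for DN8240_c0_g1. It was 1.33 (SE 0.47, adjusted p = 0.0205) for DN4715_c0_g1 and 0.49 (SE 0.44, adjusted p = 0.367) for DN3233_c0_g1. Of the tested genes 44.9% were called higher, with a median change of 0.66 over all of them, so the share of ferritin genes called is near the background. That median was 0.98 with log2(value + 0.1) and 1.59 in edgeR at the deposited scaling, where the ferritin changes were 1.97, 1.83 and 0.91 and stood above 58.0%, 55.5% and 33.4% of tested genes. Without 42 h D all 3 passed, at 2.11 (adjusted p = 9.02e-07), 1.95 (4.33e-07) and 1.04 (0.000801), and the changes were larger. In that fit 62.5% of all tested genes were called higher, and their median change was 0.93. The call of DN8240_c0_g1 was lost without any 1 of 24 h A to D or 42 h A, B, C or E (adjusted p up to 0.147), and that of DN4715_c0_g1 without 24 h D or 42 h B, C or E (up to 0.068). Within replicates A and B the changes were 1.46, 1.47 and 0.70, and within C, D and E, 42 h D included, 1.35, 1.33 and 0.41. The direction of DN3233_c0_g1 turned under each rescaling on the listed genes, to between -0.37 and -0.17, and DN8240_c0_g1 kept its direction at 0.53 to 0.76 but passed only with DESeq2.

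Quiescent eggs were set against 7 h eggs, which the labels place at the same stage, and against 14 h eggs. Against 7 h no ferritin gene passed the limma test, which called 3.86% of 1682 tested genes higher and 0.238% lower. The log2 changes were 0.39 (95% interval -0.88 to 1.67) for DN8240_c0_g1, 0.16 (-0.93 to 1.25) for DN4715_c0_g1 and -0.30 (-1.36 to 0.76) for DN3233_c0_g1, with an adjusted p of 0.999 each. The count was also 0 of 3 at an unadjusted p of 0.05 and with edgeR on recovered reads. DN8240_c0_g1 was higher in each of the 3 quiescent libraries than in every 7 h library (ratio of means 1.42), although it turned to between -0.57 and -0.20 under the rescalings on the listed genes, as DN4715_c0_g1 did to between -0.86 and -0.40. The changes of DN8240_c0_g1, DN4715_c0_g1 and DN3233_c0_g1 stood above 67.8%, 43.8% and 2.32% of tested genes, whose median was 0.20. With log2(value + 0.1) they stood above 36.3%, 22.1% and 4.99%, and the median was 0.77. In edgeR at the deposited scaling the shares were 23.5%, 16.5% and 6.96%, and the median was 1.29. DN3233_c0_g1 passed in DESeq2 alone, at -1.23 (adjusted p = 0.00220), among 2.68% called lower. Within replicate A the changes of the 3 genes, in the same order, were 0.31, 0.33 and -0.17 against 7 h A and B, and within C, D and E 0.43, 0.04 and -0.40.

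Against 14 h eggs all 3 ferritin genes were lower in quiescent eggs. The ratio of mean signal was 0.191 for DN8240_c0_g1, 0.228 for DN4715_c0_g1 and 0.241 for DN3233_c0_g1, and no quiescent library overlapped the 14 h libraries. The log2 change was -2.05 (SE 0.65, limma adjusted p = 0.010) for DN8240_c0_g1. It was -1.69 (SE 0.56, adjusted p = 0.0127) for DN4715_c0_g1 and -1.78 (SE 0.54, adjusted p = 0.00774) for DN3233_c0_g1. Of the 1682 tested genes 48.6% were called lower, with a median change of -0.76. That median was -1.83 with log2(value + 0.1) and -2.34 in edgeR at the deposited scaling, where the ferritin changes were -2.39, -2.13 and -2.05, close to it. Within replicates A and B, which hold 1 quiescent library, the changes were -1.75, -1.35 and -1.57, and within C, D and E -2.41, -2.03 and -2.03 (adjusted p = 0.128, 0.119 and 0.117). These calls rest on the deposited scaling: under median-ratio rescaling the changes were -0.28, -0.06 and -0.03, and none passed under any rescaling on the listed genes. The listed genes were selected for change, with 818 called lower here and 247 higher, so rescaling on them centres that shared fall. Loss of these calls therefore cannot show which scaling holds.

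How the libraries are scaled to each other moved the median change of all tested genes, and genes did not all move by the same amount. The listed genes had been selected for change, and rescaling on them centres a change that many of them share. A call lost under such rescaling therefore cannot show which scaling holds. With the deposited scaling kept, edgeR on recovered reads called the same ferritin genes as limma, against a background of 42.7% called higher at 14 h against 7 h, 38.2% higher at 42 h against 24 h and 59.6% lower in quiescence against 14 h. Median-ratio rescaling shifted the median log2 change of all tested genes by -0.36 at 14 h against 7 h, -0.47 at 42 h against 24 h and 0.69 in quiescence against 14 h. At 14 h against 7 h it took DN8240_c0_g1 from 2.45 to 1.37, DN4715_c0_g1 from 1.85 to 0.86 and DN3233_c0_g1 from 1.48 to 0.34. The change relative to the median of all tested genes is given for limma at the deposited scaling, limma after median-ratio rescaling and edgeR at the deposited scaling, in this order. At 14 h against 7 h it was 2.03, 1.31 and 1.35 for DN8240_c0_g1, 1.43, 0.80 and 0.80 for DN4715_c0_g1, and 1.07, 0.28 and 0.11 for DN3233_c0_g1. At 42 h against 24 h it was 0.70, 0.40 and 0.37 for DN8240_c0_g1, 0.68, 0.37 and 0.24 for DN4715_c0_g1, and -0.17, -0.42 and -0.69 for DN3233_c0_g1. Other rescalings put DN8240_c0_g1 and DN4715_c0_g1 below that median there, at -0.13 and -0.16 with trimmed-mean factors and -0.12 and -0.14 in DESeq2. After quantile normalization they stood above it, at 0.69 and 0.57. In quiescence against 14 h the change relative to the median, in the order of fits given, was -1.29, -0.21 and -0.05 for DN8240_c0_g1. It was -0.92, 0.01 and 0.20 for DN4715_c0_g1, and -1.02, 0.04 and 0.29 for DN3233_c0_g1. Among these fits, a larger fall of each ferritin gene than of the median gene in quiescence was seen with log2(value + 1) and the deposited scaling. In the other 2 fits it was smaller or turned. For DN8240_c0_g1, DN4715_c0_g1 and DN3233_c0_g1 it was also seen after quantile normalization (-1.76, -0.65 and -1.22) and with log2(value + 0.1) (-0.45, -0.20 and -0.18). With trimmed-mean factors the values were -0.04, 0.21 and 0.29, and in DESeq2 -0.02, 0.22 and 0.27. The split of all calls into higher and lower moved as well, at 14 h against 7 h from 1095 and 129 to 1101 and 645, at 42 h against 24 h from 2337 and 277 to 1334 and 683, and in quiescence against 14 h from 247 and 818 to 274 and 74.

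**Figure D2:**
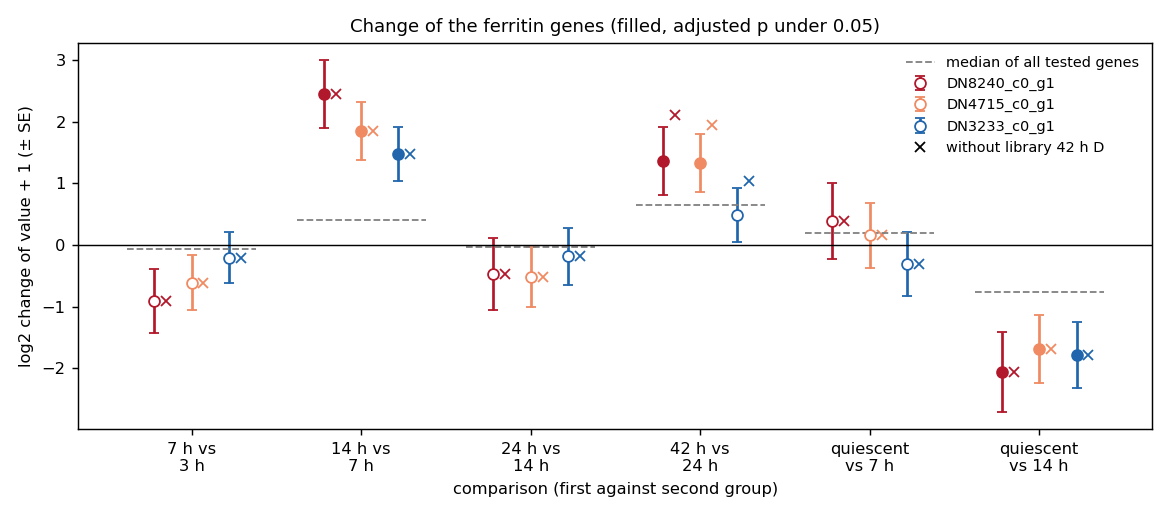
Log2 change of value + 1 (vertical axis, ± SE from limma) of the 3 ferritin genes in 6 comparisons, filled where the adjusted p was under 0.05, with crosses for the fit without library 42 h D and dashed lines for the median of all tested genes. All 3 genes rose at 14 h and were lower in quiescent eggs than at 14 h with the deposited scaling; under rescaling on the listed genes the quiescent calls were lost and DN3233_c0_g1 turned sign at 42 h.

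**Figure D3:**
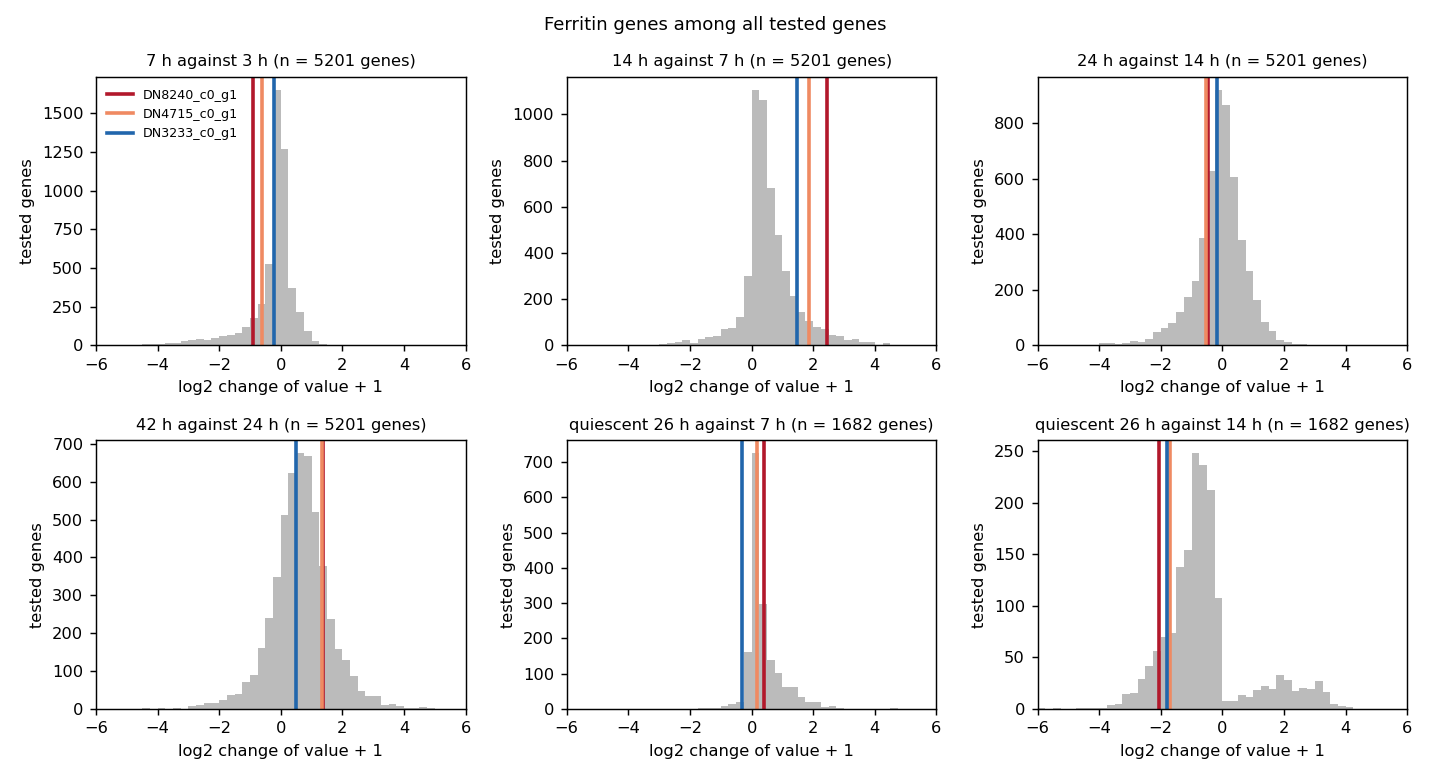
Distribution of the log2 change of value + 1 (horizontal axis) over all tested genes (vertical axis, number of genes) in the same 6 comparisons, with the ferritin genes as coloured lines. At 14 h against 7 h the ferritin genes lay above 88.2% to 95.9% of tested genes on this scale (52.3% to 70.03% in edgeR on recovered reads), while at 42 h against 24 h DN3233_c0_g1 lay above 41.8%.

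Between groups that were not consecutive, all 3 ferritin genes were called higher at 14 h than at 3 h, at 24 h than at 7 h, and at 42 h than at 3 h and 7 h. The background was 18.7%, 22.2%, 75.7% and 75.0% of tested genes called higher. DN8240_c0_g1 had the widest span, with a ratio of mean signal of 19.9 between 42 h and 7 h (log2 change 3.34, limma adjusted p = 2.08e-05). DN4715_c0_g1 had a ratio of 11.8 and DN3233_c0_g1 of 5.14 over the same span. Leaving out 42 h D, these ratios were 24.6, 14.5 and 6.25 (log2 change 4.09, 3.28 and 2.34), and the changes at 42 h against 3 h were 3.19, 2.67 and 2.13, all called. Leaving out 1 library at a time, the calls at 14 h against 3 h held in 7 to 22 of 26 fits and those at 24 h against 7 h in 18 to 26. All 3 calls at 14 h against 3 h were lost under trimmed-mean, DESeq2 and median-ratio scaling (log2 changes of 0.048 to 0.55) and with a replicate block (limma adjusted p = 0.0604, 0.0826 and 0.0547). At 24 h against 7 h DN4715_c0_g1 and DN3233_c0_g1 lost theirs under each rescaling on the listed genes (0.071 to 0.51). At 42 h against 3 h all 3 lost theirs under trimmed-mean and median-ratio scaling, and DN3233_c0_g1 passed under no rescaling at 42 h against 3 h or 7 h, turning to -0.32 and -0.16 under median-ratio rescaling. Within replicates C, D and E alone 2 of these 12 calls held, those of DN8240_c0_g1 and DN4715_c0_g1 at 42 h against 7 h. At 42 h against 14 h no ferritin gene passed over all libraries, where 44.6% of tested genes were called higher, and all 3 did without 42 h D (adjusted p = 2.38e-05, 2.62e-05 and 0.00382). The share of all tested genes called without 42 h D is not given for 42 h against 3 h, 7 h or 14 h. The ferritin calls made without it therefore do not set these genes apart from other genes.

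The ratio of 2 ferritin genes within a library does not depend on how libraries are scaled to each other. DN8240_c0_g1 and DN4715_c0_g1 both fell relative to DN3233_c0_g1 at gastrulation and were higher relative to it again at 14 h and at 42 h. The ratio of DN8240_c0_g1 to DN3233_c0_g1 ran from 0.801 to 1.44 at 3 h, 0.467 to 0.647 at 7 h, 1.03 to 1.66 at 14 h, 0.920 to 1.05 at 24 h, 1.09 to 3.15 at 42 h and 0.984 to 1.05 in quiescent eggs. The ratio of DN4715_c0_g1 to DN3233_c0_g1 ran from 0.498 to 0.699 at 3 h, 0.338 to 0.430 at 7 h, 0.492 to 0.750 at 14 h, 0.403 to 0.539 at 24 h, 0.584 to 1.45 at 42 h and 0.532 to 0.608 in quiescent eggs. The 7 h libraries lay below those of every other group in the first ratio, and in the second below every other group with the exception of 24 h, whose lowest libraries they overlapped.

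These ratios were compared by two-sided exact permutation tests over libraries, 18 in all, chosen after the values had been seen. For DN8240_c0_g1 over DN3233_c0_g1 the log2 difference was -0.88 at 7 h against 3 h (exact p = 0.00794), 1.17 at 14 h against 7 h (0.0159) and 0.90 at 42 h against 24 h (0.0159), each with a Benjamini-Hochberg adjusted p of 0.0408. For DN4715_c0_g1 over DN3233_c0_g1 the differences were -0.62, 0.67 and 0.93 in these comparisons, with the same exact and adjusted p. Each is the smallest p that its group sizes allow, and at 42 h the 5 libraries, 42 h D included, lay above all 24 h libraries in both ratios. Without 42 h D the differences at 42 h were 1.09 and 1.03 (exact p = 0.0286, the smallest that 4 against 4 allow).

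Quiescent eggs differed from 7 h eggs in these ratios by 0.89 for DN8240_c0_g1 and 0.62 for DN4715_c0_g1 over DN3233_c0_g1, with no overlap between the groups. The exact p of 0.0357 is the smallest that 3 against 5 allow, and the adjusted p of 0.0714 missed the threshold. Against 14 h, where 3 against 4 cannot go below 0.0571, the differences were -0.28 (exact p = 0.171) and -0.05 (0.800). DN8240_c0_g1 over DN4715_c0_g1 changed in 1 comparison, 14 h against 7 h, by 0.49 (exact p = 0.0159, adjusted p = 0.0408). At 7 h against 3 h it differed by -0.26 (exact p = 0.111) and at 42 h against 24 h by -0.03 (0.857). Within replicates A and B the changes at 14 h were 0.83 for DN8240_c0_g1 over DN3233_c0_g1 and 0.20 for DN8240_c0_g1 over DN4715_c0_g1, and within C, D and E they were 1.44 and 0.70.

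**Figure D4:**
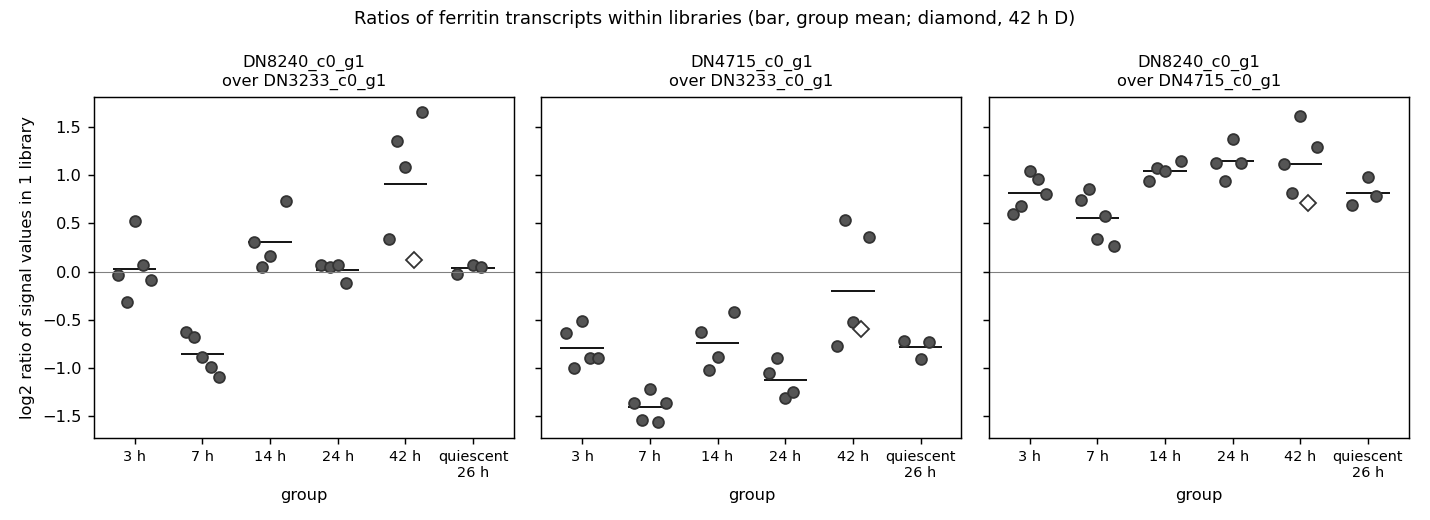
Log2 ratio of the signal of 2 ferritin genes within each library (vertical axis) by group, with points for libraries, bars for group means and an open diamond for 42 h D. Both ratios to DN3233_c0_g1 were low at 7 h, where the ratio of DN8240_c0_g1 stayed between 0.467 and 0.647, and quiescent eggs lay within the 3 h range. Quiescent eggs also lay within the 24 h range for DN8240_c0_g1 and within the 14 h range for DN4715_c0_g1 over DN3233_c0_g1.

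Across all 26 libraries DN8240_c0_g1 and DN4715_c0_g1 were each other's closest gene among 5257 others, with a Pearson correlation of log2(value + 1) of 0.990. This is a description over libraries that share groups, tables and scaling, and many genes were close. DN3233_c0_g1 stood at rank 47 for DN8240_c0_g1 (r = 0.953) and at rank 83 for DN4715_c0_g1 (r = 0.945), and leaving out 42 h D kept rank 1 for the first pair. In the other direction DN8240_c0_g1 stood at rank 11 for DN3233_c0_g1 and DN4715_c0_g1 at rank 21. After DN4715_c0_g1, the closest to DN8240_c0_g1 were DN3754_c0_g2 (0.979) and DN5336_c0_g1 (0.978), which have no protein match. Its closest genes with a match were DN3483_c0_g1 (0.977), which matches FKBP2, a prolyl isomerase of the endoplasmic reticulum, DN9055_c1_g1 (0.974), a cuticle protein match, and DN8797_c0_g1 (0.971), a proprotein convertase match. DN4715_c0_g1 was followed by DN5959_c0_g1 (0.978), without a match, DN3483_c0_g1 (0.978) and, with a match, DN9055_c1_g1 (0.968). The closest to DN3233_c0_g1 were DN2040_c0_g1 (0.972), DN7741_c0_g1 (0.967) and DN5849_c0_g1 (0.959), without matches. With a match they were DN10688_c0_g1 (0.959), a calmodulin match, DN5026_c1_g1 (0.957), a cytochrome P450 match, and DN8240_c0_g1 (0.953).

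**Figure D5:**
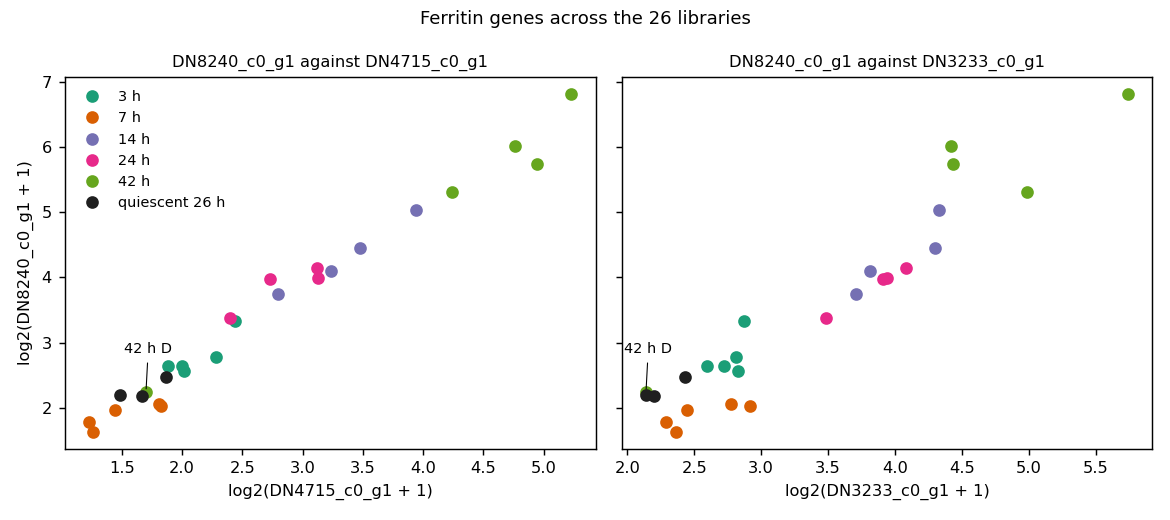
Log2(value + 1) of DN8240_c0_g1 (vertical axis) against DN4715_c0_g1 and DN3233_c0_g1 (horizontal axes) in the 26 libraries, coloured by group. The first pair lies close to a line (r = 0.990), while in the second the 7 h libraries lie below the quiescent and 3 h libraries at like levels of DN3233_c0_g1.

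Few other genes of iron handling were among the listed genes. Of 6 found by name 2 could be tested, both matching globins, the haem proteins that bind oxygen. DN30513_c0_g1 rose at 42 h against 24 h, from 0.216 ± 0.0674 (SD, n = 4) to 1.42 ± 0.858 (n = 5) with 1 library of 42 h at 0 (log2 change 0.89, limma adjusted p = 0.00153). The mean at 42 h was 1.77 ± 0.376 (n = 4) without 42 h D (log2 change 1.18). DN13842_c0_g1 passed in no consecutive comparison over all libraries, and at 42 h against 24 h it passed without 42 h D (0.54, adjusted p = 0.000318). Of 9 tested antioxidant genes, which remove reactive oxygen, limma called 2 higher at 14 h against 7 h, near the 21.1% of all tested genes, and edgeR on recovered reads 6, against 42.7%. At 42 h against 24 h limma called 6 higher and 1 lower, against 44.9% and 5.33% of all tested genes, and without 42 h D 7 and 1, against 62.5% and 6.21%. The genes called at 14 h were DN4534_c0_g2, a nucleoredoxin-like match, which rose from 7.20 ± 2.25 (n = 5) to 63.4 ± 22.2 (n = 4), and DN15497_c0_g1, a copper-zinc superoxide dismutase match, which rose from 1.25 ± 0.165 to 4.17 ± 1.45. By the ratio of means DN4253_c0_g1 (17.8) and DN5239_c0_g1 (12.04), which did not pass, exceeded DN4534_c0_g2 (8.81). Of 4 tested in the quiescent table none passed against 7 h. Against 14 h, where 14.7% of tested genes were called higher and 48.6% lower, the superoxide dismutase match DN829_c1_g1 was higher in quiescent eggs, at 10.03 ± 1.39 (n = 3) against 2.31 ± 0.449 (n = 4), and DN4534_c0_g2 was lower, at 16.3 ± 3.58. In edgeR on recovered reads 1 was called higher and 3 lower, against 198 and 1003 of 1682 tested genes. At 3 h DN829_c1_g1 stood at 41.0 ± 4.62 (n = 5) and at 7 h at 5.37 ± 0.943 (n = 5). It was the 1 of 9 called lower in limma at 7 h against 3 h, where 11.1% of tested genes were. DN4534_c0_g2 was also called lower at 24 h than at 14 h, at 10.7 ± 3.09 (n = 4), 1 of 9 against 9.61%. In limma 1 of 9 was called higher there.

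No artemin match was found, and the tested genes of the dormant-cyst list were 9 small heat shock proteins, chaperones of which Artemia p26 is an example. In quiescent eggs 2 of the 3 in the quiescent table were higher than at 7 h, where 3.86% of all tested genes were, unlike the ferritin genes, of which none passed; that difference itself was not tested. DN3843_c0_g1 stood at 6.04 ± 2.82 (SD, n = 3) against 0.592 ± 0.441 (n = 5) and DN1337_c0_g1 at 7.76 ± 3.37 against 1.51 ± 0.774. At 14 h both were called higher than at 7 h with DN12651_c0_g1, 3 of 9 against 21.1% of all tested genes. At 24 h the same 3 were called lower than at 14 h, against 9.61%, where no ferritin gene passed. At 42 h these 3 and DN14472_c0_g1 were called higher than at 24 h, against 44.9%, and without 42 h D DN6961_c0_g1 as well, 5 of 9 against 62.5%. At 7 h DN4793_c21_g1, DN21453_c0_g1 and DN55100_c0_g1 were called lower than at 3 h, 3 of 9 against 11.1%. In quiescent eggs DN12651_c0_g1 and DN3843_c0_g1 were called lower than at 14 h, 2 of 3 against 48.6%, as the ferritin genes were. In edgeR on recovered reads 3 of 3 were called higher in quiescence against 7 h, where 332 of 1682 tested genes were. It called 5 of 9 higher at 14 h against 7 h (42.7% of tested genes) and 4 at 42 h against 24 h (38.2%). At 7 h against 3 h it called 1 of 9 lower, with 854 of 5201 tested genes. It called 3 lower at 24 h against 14 h (338 of 5201) and 1 of 3 in quiescence against 14 h (59.6%).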

How the data were processed

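The authors deposited 2 tables of normalized signal per gene, for subitaneous (9502 genes) and quiescent (2777 genes) contrasts; per the labels they hold genes selected at an alpha of 0.001 and a fold of 2. Libraries were made with a TruSeq kit from total RNA, per the labels' protocols, and bcl2fastq and edgeR are named, per the submitters' processing notes; how reads were aligned, counted and scaled is not given in the sources used here. Genes with a signal of at least 1 in at least 3 of 26 libraries (5201 and 1682) were tested on log2(value + 1) with limma 3.58.1 in R 4.3.3 (a group term, trend and robust options, all 26 libraries), with Benjamini-Hochberg adjustment over each table. A call is an adjusted p under 0.05.

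Deposited values were whole multiples of 1 read's worth (100% of values up to 2000 reads within 0.1 read), so edgeR 4.0.16 and DESeq2 1.42.0 were run on recovered reads as alternatives. With the deposited scaling edgeR called the same ferritin genes as limma in 6 comparisons of 6: 3 at 14 h against 7 h, 2 at 42 h against 24 h, 3 in quiescence against 14 h and 0 elsewhere. Other alternatives were pseudocounts of 0.5 and 0.1, no filter, joined tables, rescaling on the listed genes, the spread of 2 groups, a replicate block, a run term, single runs and leaving out each library. Runs were inferred from sheet numbers in the labels (A and B, or C, D and E), which do not state that these were sequencing runs. Replicate pairs differed beyond counting noise (chi-square per degree of freedom at least 52.4). The limma and edgeR fits were also run on simulated data with known changes. Those data had the same spread setting in every group and no deviant library, unlike the 42 h group here. They do not bear on how 42 h D affects the tests.

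All 3 ferritin genes, the 3 other tested genes closest to each and the 3 closest with a protein match were named, and from gene lists matched by identifier the called ones (of antioxidants, the 3 largest changes). Wrongly matched genes were left out by name. Members, lists and ratio tests were chosen with earlier results of these data known. Every sample column was used.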

Additional observations from a re-analysis of the deposited data

Results flagged for a closer look

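In 30 groups of 4 or 5 libraries checked, 2 held a library far from the others of its group, and chance alone flags about 1 group in 20. DN8240_c0_g1 was 9.07 in library 3 h C, against 4.89 to 5.85 in the other 3 h libraries, and the gap to the nearest took 0.769 of the group's range. The other ferritin genes were also highest at 3 h in that library, at 4.41 for DN4715_c0_g1 and 6.31 for DN3233_c0_g1. The ratio of DN8240_c0_g1 to DN3233_c0_g1 was 0.920 in library 24 h D, below the other 24 h libraries, with a gap of 0.861 of the range. Library 42 h D was not flagged in any ferritin value.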

How the results depend on the processing

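With the deposited scaling, the ferritin calls at 14 h against 7 h and in quiescence against 14 h held under both other pseudocounts, without a filter, with joined tables, with a run term, with the spread of 2 groups alone, with edgeR, and without any 1 library. All ferritin genes kept their direction at 14 h against 7 h under every alternative run. The cause of the changes that follow was not tested. Replicates C, D and E alone ended all 8 ferritin calls of the 6 comparisons, and rescaling on the listed genes ended up to 6 and turned signs. With trimmed-mean factors in edgeR, calls were lost at log2 changes of 0.31 for DN3233_c0_g1 at 14 h against 7 h, 0.53 for DN8240_c0_g1 and 0.50 for DN4715_c0_g1 at 42 h against 24 h, and -0.91 for DN8240_c0_g1, -0.66 for DN4715_c0_g1 and -0.58 for DN3233_c0_g1 in quiescence against 14 h. There, calls were gained at log2 changes of -1.16 for DN8240_c0_g1 and -0.86 for DN4715_c0_g1 at 7 h against 3 h. With these factors 833 of 5201 tested genes were called lower at 7 h against 3 h. Signs turned at log2 changes of -0.37 for DN3233_c0_g1 at 42 h against 24 h, -0.57 for DN8240_c0_g1 and -0.86 for DN4715_c0_g1 in quiescence against 7 h. Further turned values were -0.096 for DN8240_c0_g1, -0.41 for DN4715_c0_g1 and -0.076 for DN3233_c0_g1 at 24 h against 3 h, -0.013 for DN4715_c0_g1 and -0.49 for DN3233_c0_g1 at 42 h against 14 h, -0.44 for DN3233_c0_g1 at 42 h against 3 h, and -0.18 for DN3233_c0_g1 at 42 h against 7 h. Under DESeq2, calls were lost at log2 changes of -0.38 for DN8240_c0_g1, -0.14 for DN4715_c0_g1 and -0.087 for DN3233_c0_g1 in quiescence against 14 h. DESeq2 gained calls at log2 changes of -1.07 for DN8240_c0_g1 and -0.77 for DN4715_c0_g1 at 7 h against 3 h, -0.65 for DN8240_c0_g1 and -0.73 for DN4715_c0_g1 at 24 h against 14 h, and -1.23 for DN3233_c0_g1 in quiescence against 7 h. DESeq2 called 1002 of 5201 tested genes lower at 7 h against 3 h. Its signs turned at log2 changes of -0.27 for DN3233_c0_g1 at 42 h against 24 h, -0.33 for DN8240_c0_g1 and -0.61 for DN4715_c0_g1 in quiescence against 7 h. Further turned values were -0.094 for DN8240_c0_g1, -0.41 for DN4715_c0_g1 and -0.071 for DN3233_c0_g1 at 24 h against 3 h, -0.096 for DN4715_c0_g1 and -0.61 for DN3233_c0_g1 at 42 h against 14 h, -0.34 for DN3233_c0_g1 at 42 h against 3 h, and -0.17 for DN3233_c0_g1 at 42 h against 7 h. Under median-ratio rescaling, calls were lost at log2 changes of 0.34 for DN3233_c0_g1 at 14 h against 7 h, 0.58 for DN8240_c0_g1 at 42 h against 24 h, and -0.28 for DN8240_c0_g1, -0.064 for DN4715_c0_g1 and -0.029 for DN3233_c0_g1 in quiescence against 14 h. The same rescaling gained calls at log2 changes of -0.92 for DN8240_c0_g1 and -0.64 for DN4715_c0_g1 at 7 h against 3 h. Under it 862 of 5201 tested genes were called lower at 7 h against 3 h. It turned signs at log2 changes of -0.24 for DN3233_c0_g1 at 42 h against 24 h, -0.20 for DN8240_c0_g1 and -0.40 for DN4715_c0_g1 in quiescence against 7 h. Further turned values were -0.095 for DN8240_c0_g1, -0.36 for DN4715_c0_g1 and -0.083 for DN3233_c0_g1 at 24 h against 3 h, -0.020 for DN4715_c0_g1 and -0.51 for DN3233_c0_g1 at 42 h against 14 h, -0.32 for DN3233_c0_g1 at 42 h against 3 h, and -0.16 for DN3233_c0_g1 at 42 h against 7 h. Under quantile normalization, calls were lost at log2 changes of 0.76 for DN3233_c0_g1 at 14 h against 7 h, 0.76 for DN8240_c0_g1 and 0.64 for DN4715_c0_g1 at 42 h against 24 h, and -1.86 for DN8240_c0_g1, -0.74 for DN4715_c0_g1 and -1.31 for DN3233_c0_g1 in quiescence against 14 h. That normalization turned signs at log2 changes of 0.29 for DN3233_c0_g1 at 7 h against 3 h, -0.17 for DN3233_c0_g1 at 42 h against 24 h, -0.41 for DN8240_c0_g1 and -0.59 for DN4715_c0_g1 in quiescence against 7 h, and -0.44 for DN3233_c0_g1 at 42 h against 14 h.

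The lower pseudocounts ended the call of DN8240_c0_g1 at 42 h against 24 h, at 1.37 with 0.5 and with 0.1. The spread of 2 groups alone ended the calls at 42 h against 24 h (1.36 for DN8240_c0_g1 and 1.33 for DN4715_c0_g1) and gained those at 7 h against 3 h (-0.90 and -0.61). With that spread 1438 of 5201 tested genes were called lower at 7 h against 3 h. Within C, D and E, with fewer libraries and 42 h D among them, calls were lost at 2.84, 2.07 and 1.63 at 14 h, at 1.35 for DN8240_c0_g1 and 1.33 for DN4715_c0_g1 at 42 h against 24 h, and at -2.41, -2.03 and -2.03 in quiescence against 14 h. DN3233_c0_g1 turned to -0.22 there at 42 h against 14 h. Within A and B, a split chosen after seeing the data, signs turned at 24 h against 14 h, to 0.14, 0.11 and 0.25.

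Leaving out 1 library, the change at 42 h against 24 h ran from 0.96 to 2.11 for DN8240_c0_g1, from 1.07 to 1.95 for DN4715_c0_g1 and from 0.14 to 1.04 for DN3233_c0_g1. At 7 h against 3 h that of DN8240_c0_g1 ran from -0.96 to -0.77, and at 42 h against 14 h that of DN3233_c0_g1 from -0.044, without 42 h C, to 0.86.

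The labels do not say that letters pair the libraries, and not every same-letter pair correlated over 0.1, so they were not taken as pairs. Deviations of same-letter libraries correlated at -0.462 to 0.495, with a median of 0.0778 and 24 of 56 pairs over 0.1, against a median of -0.0372 and 66 of 224 for different letters. A replicate block ended the call of DN8240_c0_g1 at 42 h against 24 h (1.25, limma adjusted p = 0.0510), turned DN3233_c0_g1 to 0.0097 at 24 h against 14 h, and changed no other call in the 6 comparisons.

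The ratio alternatives were chosen after seeing the data. Within A and B, DN8240_c0_g1 over DN3233_c0_g1 moved to -0.47 at 7 h against 3 h, 0.83 at 14 h and 0.63 in quiescence against 7 h, and within C, D and E to -1.15, 1.44 and 1.05. DN8240_c0_g1 over DN4715_c0_g1 moved in the same comparisons to 0.16, 0.20 and -0.11 within A and B and to -0.55, 0.70 and 0.49 within C, D and E. DN4715_c0_g1 over DN3233_c0_g1 moved at 24 h against 14 h to -0.15 and -0.63. Adding 1 to both values turned DN4715_c0_g1 over DN3233_c0_g1 to 0.096 in quiescence against 14 h and DN8240_c0_g1 over DN4715_c0_g1 to 0.026 at 42 h against 24 h. At 7 h against 3 h it gave the latter a difference of -0.29, with an exact permutation p of 0.0397 that was not adjusted.

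Counts of all called genes ranged, over all settings other than leaving out 1 library, from 242 to 1775 around 584 at 7 h against 3 h, 482 to 3418 around 1224 at 14 h against 7 h, 250 to 1456 around 647 at 24 h against 14 h, and 48 to 5371 around 2614 at 42 h against 24 h. In quiescence they ranged from 0 to 712 around 69 against 7 h and from 267 to 1678 around 1065 against 14 h. Without 42 h D they were 826, 2404, 1507, 3575, 227 and 1351 in this order. The counting error of a ferritin value was at most 8.74% and lay below the spread between libraries in each group.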
